A study of Mus musculus with 12 samples.

Results

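The interferon-stimulated genes described here were 38 genes, picked by symbol as the type I interferon receptor chains, the factors that carry the signal, the sensors that trigger interferon and the effectors that it switches on. All 38 were among the 24561 genes of the table, and 37 were among the 12719 genes that passed the expression filter and were tested. The RNA came from CXCR5hiPD-1hi OT-II TFH cells, follicular helper T cells with a receptor for ovalbumin. OT-II cells had been transferred into CD45.1 Sap-/- C57BL/6 recipients, whose own T cells give poor help to B cells. The recipients were immunized under the skin with NP-OVA and LPS in alum, and the cells were sorted from draining lymph nodes on day 3. In 3 mice labelled HET the transferred cells were CD4-Cre x Bcl6fl/+, called BCL6-insufficient, and in 3 mice labelled WT they were CD4-Cre, called BCL6-sufficient. Both groups thus carried the Cre, which is driven by the *Cd4* promoter and acts in T cells, and in HET cells 1 *Bcl6* allele could be deleted. Each mouse gave 2 technical repeats of about 200 cells, 12 libraries in all. The number of donor mice behind this transfer is not given in the sources used here, so donor and genotype cannot be told apart if the recipients of a group shared a donor.

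Type I interferons are secreted cytokines that almost every cell can sense. They bind a receptor made of IFNAR1 and IFNAR2, and the kinases JAK1 and TYK2 on that receptor then phosphorylate STAT proteins, STAT2 among them. STAT2 and IRF9 are parts of a complex that binds the interferon-stimulated response element in front of many genes, while the gamma-activated site answers to interferon gamma as well. The products degrade viral RNA, block its translation, modify proteins with ISG15 or attack the membranes around pathogens. In CD4 T cells type I interferon also acts during the early choice between follicular helper and Th1 fates.

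Some members carry these elements directly in front of their starts, and the stretches below are shown because they come from genes on which the results turn. The first 3 are from neighbouring Gbp genes, of which 2 had lower counts in HET mice. *Isg15* and *Ifit1* are shown as widely used reporters of the response, and *Irf8* and *Irf1* as factors with the other element. Capitals mark the core of the interferon-stimulated response element (ISRE core: GAAA, any 2 bases, then GAAA) or the gamma-activated site (TTCNNNGAA), on either strand. Each sequence reads 5′ to 3′ along the strand of the gene, from RefSeq promoter windows of GRCm38.p6.
*Gbp7*, chr3:142530263-142530312, plus strand: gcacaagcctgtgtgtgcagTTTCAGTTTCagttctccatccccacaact
*Gbp3*, chr3:142559992-142560021, plus strand: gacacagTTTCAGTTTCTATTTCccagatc
*Gbp2*, chr3:142620594-142620623, plus strand: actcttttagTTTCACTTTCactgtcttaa
*Isg15*, chr4:156200855-156200916, minus strand: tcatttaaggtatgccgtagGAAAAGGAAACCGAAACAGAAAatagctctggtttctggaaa
*Ifit1*, chr19:34640765-34640833, plus strand: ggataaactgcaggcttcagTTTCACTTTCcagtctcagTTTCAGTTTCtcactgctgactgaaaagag
*Irf8*, chr8:120736167-120736233, plus strand: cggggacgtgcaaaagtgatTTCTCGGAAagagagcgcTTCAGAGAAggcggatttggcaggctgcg
*Irf1*, chr11:53769904-53769952, plus strand: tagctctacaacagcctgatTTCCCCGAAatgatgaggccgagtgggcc
All of these lie in the 250 bases before an annotated start.

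A promoter window was at hand for 29 of the 38 members. The ISRE core was present before 11 of these 29 genes (37.9%) and before 3.46% of all 27025 genes with a window, or in 2.98% of the 32851 windows. TTCNNNGAA was present before 9 of the 29 (31.0%) and before 8.13% of all genes, or in 7.02% of the windows. The 2 patterns can overlap, as they do in front of *Bst2*. In *Isg15* the ISRE core occurred 3 times, each match overlapping the next, and in *Ifit1* twin matches started 104 and 85 bases before the start. The 11 members with the ISRE core had a median log2 fold change, HET over WT, of 0.05, and the range from -1.17 in *Gbp3* to 0.76 in *Ifit3* covered both signs. The 17 tested members with a window but without the pattern had a median of -0.04. Members with and without the element thus differed little in their medians. *Mx1*, *Mx2*, *Oas2*, *Usp18*, *Dhx58*, *Zbp1*, *Parp9*, *Parp14* and *Rtp4* had no window.

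The libraries held between 3343375 and 8315722 counts and between 14946 and 16249 detected genes. *Bcl6*, the targeted gene, had more counts in the mice labelled HET, with normalized CPM (counts scaled to the size of the library) of 150, 146 and 150, than in the mice labelled WT, with 54.8, 75.6 and 56.9, a log2 fold change of 1.25 with an adjusted p of 6.3e-07. Counts were made over the whole gene, whichever allele a read came from, so this goes against the label without settling it, and every direction below rests on the labels. The T cell markers summed to 2256 to 2551 CPM in HET mice and 2467 to 2711 CPM in WT mice, and the 7 TFH markers to 1497 to 1537 and 1493 to 1565 CPM. Single markers differed within these sums: *Icos* (log2 fold change 0.64) and *Bcl6* were called higher in HET mice, and *Cxcr5* (-0.40), *Pdcd1* (-0.42) and *Tox2* (-0.80) of the TFH list and *Cd4* (-0.34) and *Cd5* (-0.34) of the T cell list were called lower. Markers of other cells were low. The 9 B cell markers summed to 15.7, 95.4 and 24.9 CPM in HET mice and 21.9, 14.8 and 71.2 CPM in WT mice, the 6 macrophage and monocyte markers in the table to 27.8, 19.2 and 15.6 CPM against 7.42, 11.5 and 11.9 CPM, and the 4 plasmacytoid dendritic cell markers to at most 3.76 CPM, with *Cox6a2* at 0 throughout and *Siglech* at 0 in 5 of 6 mice. The 3 natural killer cell markers in the table summed to at most 3.19 CPM. Among the macrophage genes *Lyz2* was called higher in HET mice (log2 fold change 2.64, adjusted p = 0.0053), and *Cd14* was at 0 in every mouse. *Csf1r* lay higher in every HET mouse without a call, and *Itgam* was higher on average with overlap. *Cd68* (mean 2.15 CPM in HET and 2.46 CPM in WT mice) and *Fcgr3* (0.540 and 0.908 CPM) were lower on average in HET mice.

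A few members differed between the groups, in about the share seen over all genes. Of 37 tested members, 1 was called higher in HET mice, *Mx1*, and 4 were called lower, *Irf8*, *Parp9*, *Gbp2* and *Gbp3*, where called means an adjusted p below 0.05 by the quasi-likelihood F test of edgeR, adjusted after Benjamini and Hochberg over all tested genes. The called share was 13.5% of the members and 18.0% of all 12719 tested genes (2288 genes), with 9.17% of all genes called higher and 8.82% called lower. Of the calls over all genes 51.0% were thus higher, a split that the deposited TPM moved to 29.9% with log2(TPM + 1) in limma. At an unadjusted p below 0.05 there were 12 members (32.4%), 3 higher and 9 lower, against 31.0% of all genes. In 12 members (32.4%) the 3 HET mice did not overlap the 3 WT mice, 3 with HET above and 9 with HET below, against 34.4% of all genes. Of the 6 roles without a call, the receptor chains, the sensors, the ISG15 system and the Ifit genes held 1 member each at an unadjusted p below 0.05, the other effectors held 2 and the Oas genes 0, and DESeq2 called none of them. For the members as a whole and regardless of direction, the shares lay near those of all genes. The splits of 3 higher and 9 lower had no split over all genes beside them and were not tested. Single roles hold too few members for a share to be read. The members' median log2 fold change was -0.0026, with 18 positive and 19 negative values, and that of all tested genes 0.01. Their median size regardless of sign was 0.30, against 0.31 for all tested genes. Since the cells were measured in bulk, fewer cells that express a gene and less RNA per cell cannot be told apart in any of these values.

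**Figure D1:**
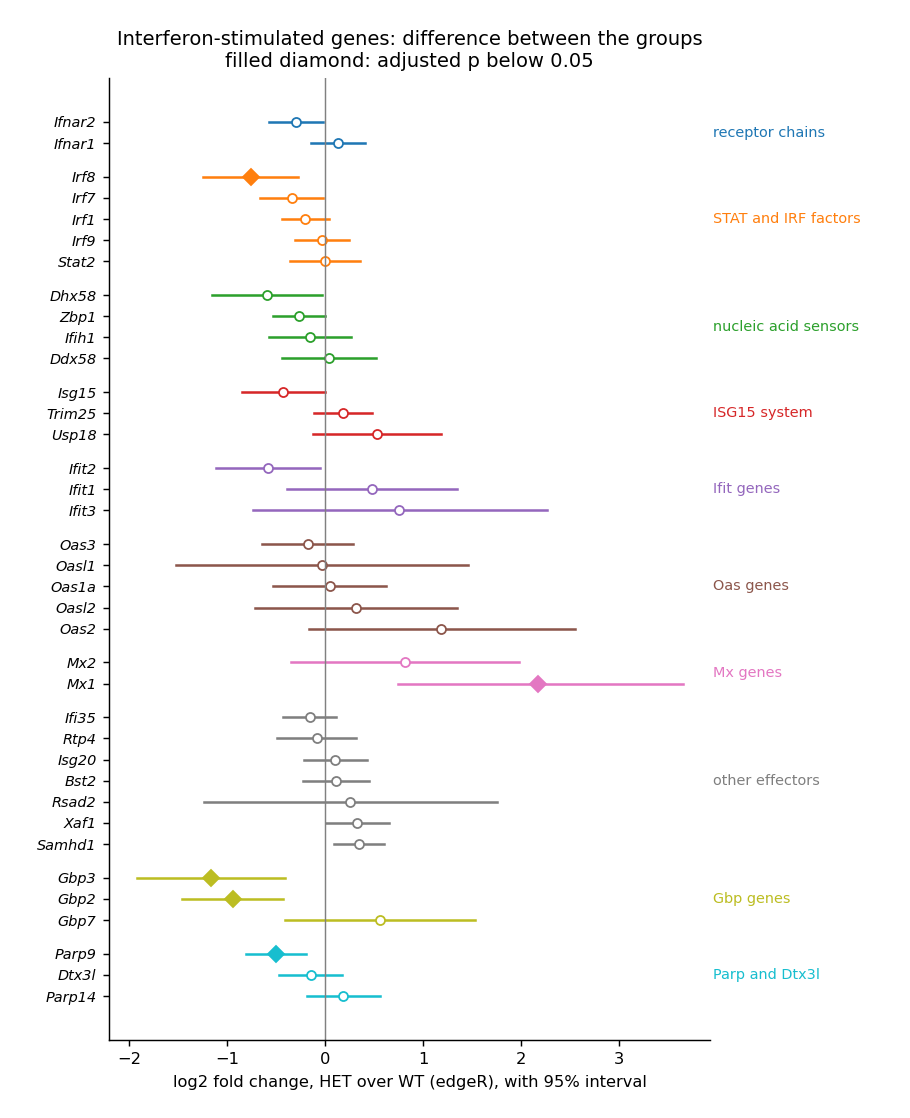
Log2 fold change, HET over WT, of the 37 tested members on the x axis, with 95% intervals as lines, grouped and coloured by role; filled diamonds mark the 5 members with an adjusted p below 0.05. *Mx1* stands at 2.17 to the right of 0, while *Irf8*, *Parp9*, *Gbp2* and *Gbp3* stand to the left, and the intervals are wide in genes with few counts, such as *Mx1*, *Ifit3*, *Oasl1* and *Rsad2*.

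Both receptor chains were present and neither was called. *Ifnar1*, the chain that pairs with TYK2, measured 49.4, 49.7 and 46.3 CPM in HET mice and 40.2, 47.4 and 45.5 CPM in WT mice. The groups overlapped, and the log2 fold change of 0.13 had a 95% interval from -0.15 to 0.40 (adjusted p = 0.57). *Ifnar2*, the chain that binds interferon more tightly, measured 54.7, 59.9 and 48.2 CPM in HET mice and 77.5, 59.9 and 62.9 CPM in WT mice. All HET mice lay below all WT mice, although HET 2 and WT 2 both round to 59.9 CPM, with a log2 fold change of -0.30 (95% interval -0.57 to -0.02) that missed the adjusted threshold (adjusted p = 0.13). The 2 genes are neighbours on chromosome 16.

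The factors that carry or amplify the signal had log2 fold changes at or below 0 in all 5 cases, and 1 was called. *Irf8*, a factor of the interferon regulatory family best known from B cells and myeloid cells, measured 12.6, 22.2 and 20.97 CPM in HET mice and 44.6, 23.8 and 25.8 CPM in WT mice. Every HET mouse lay below every WT mouse, but WT 1 stood far above the others. This gave a log2 fold change of -0.76 with a standard error of 0.23 (adjusted p = 0.026). Without WT 1 it was -0.43 and without HET 1 it was -0.54, and neither passed (adjusted p = 0.25 and 0.14). Removing trends with GC content and transcript length also ended the call, at -0.58 (adjusted p = 0.088). In WT 1 the excess came from 1 repeat, with 62.8 CPM in repeat 1 and 27.0 CPM in repeat 2. B cells, macrophages and dendritic cells also express *Irf8*. The B cell sums overlapped between the groups. The macrophage sums were higher in HET mice, but *Cd68* and *Fcgr3* were lower there on average. The 3 conventional dendritic cell markers in the table summed to 0.218, 1.49 and 0.206 CPM in HET mice and 1.28, 1.69 and 0.901 CPM in WT mice. These sums overlapped, but 1 of the 3, *Zbtb46*, was lower in every HET mouse, as *Irf8* was, with 3, 0 and 1 counts against 14, 7 and 8. Whether those cells had a part in the difference was not tested.

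*Irf7*, the main amplifier of interferon production, measured 31.2, 29.6 and 33.0 CPM in HET mice and 33.2, 39.5 and 45.8 CPM in WT mice, a log2 fold change of -0.34 (95% interval -0.66 to -0.02, adjusted p = 0.14). The mice did not overlap, though HET 3 and WT 1 nearly met. *Irf1*, which both interferon types induce, measured 70.2, 83.2 and 72.0 CPM against 81.2, 89.3 and 88.6 CPM (log2 fold change -0.20, adjusted p = 0.25), with HET 2 inside the WT range. *Stat2* and *Irf9*, which act in 1 complex, were close in the groups. *Stat2* measured 25.0, 31.8 and 23.4 CPM in HET mice and 27.0, 26.1 and 27.3 CPM in WT mice, with a log2 fold change of -0.0026 (95% interval -0.36 to 0.35, adjusted p = 0.99). *Irf9* measured 47.5, 46.8 and 50.2 CPM against 56.4, 46.0 and 45.7 CPM, at -0.04 (95% interval -0.31 to 0.24, adjusted p = 0.89). For both the interval excluded a change of 1 on the log2 scale in either direction.

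**Figure D2:**
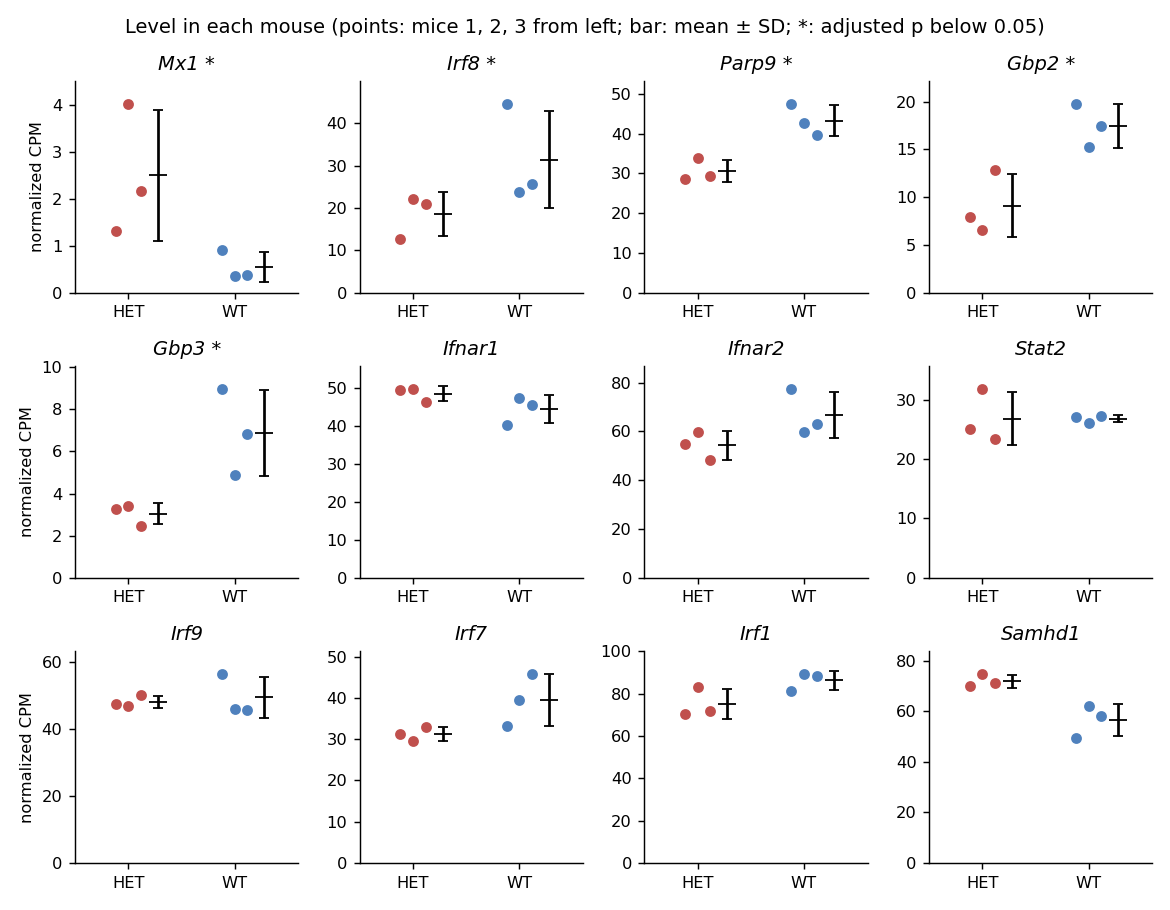
Normalized CPM, on y axes that start at 0, of 12 members in each of the 3 HET and 3 WT mice (points) with the mean and SD of each group (bars); an asterisk marks an adjusted p below 0.05. WT 1 stands apart in *Irf8* at 44.6 CPM and HET 2 in *Mx1* at 4.02 CPM, whereas the 6 mice of *Stat2* lie between 23.4 and 31.8 CPM.

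None of the 4 sensors of nucleic acids was called. *Zbp1*, which binds DNA and RNA with a left-handed helix and can start cell death, measured 58.6, 54.4 and 50.5 CPM in HET mice and 75.9, 60.35 and 60.7 CPM in WT mice. The HET mice lay below the WT mice, with a log2 fold change of -0.27 (adjusted p = 0.16). *Dhx58*, the helicase LGP2, lay below as well, at 6.12 to 7.20 CPM against 8.44 to 11.0 CPM (log2 fold change -0.59, adjusted p = 0.14). Where counting ignores strand, reads of a gene and of one that overlaps it on the other strand cannot be told apart. This may touch *Dhx58*, whose antisense gene had 0.945 CPM. It may also touch *Irf1*, which overlaps Gm17334 (27.0 CPM) by 907 bases, and *Ifi35*, which overlaps Gm11626 (21.6 CPM) by 815 bases. *Usp18* overlaps Gm44148 (3.39 CPM) by 15715 bases, but has 2790 bases of exon. These overlaps are of whole gene spans, introns included, and the part within exons was not determined. The RNA helicases *Ifih1* and *Ddx58*, known as MDA5 and RIG-I, ranged from 14.6 to 22.8 CPM and from 12.6 to 24.7 CPM, overlapped between the groups and had log2 fold changes of -0.16 and 0.04. These and other members outside the naming rule were chosen for mention after their values were seen.

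In the ISG15 system no gene was called. *Isg15*, a ubiquitin-like protein attached to others after interferon, measured 20.02, 12.6 and 16.3 CPM in HET mice and 19.5, 23.0 and 23.4 CPM in WT mice, and HET 1 overlapped the WT range (log2 fold change -0.43, adjusted p = 0.16). *Usp18*, which removes ISG15 and dampens the receptor, ran the other way at 0.53 with an interval from -0.13 to 1.18 (adjusted p = 0.27). *Trim25*, a ligase of the RIG-I pathway, had all HET mice above all WT mice, at 37.7 to 40.7 CPM against 32.0 to 37.2 CPM, with a log2 fold change of 0.18 (adjusted p = 0.42).

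The Ifit, Oas and Mx genes, the effectors that interferon raises most in many cells, included several members with few counts. Ifit proteins bind foreign RNA ends, and Oas enzymes make the second messenger that activates RNase L. Of the 3 Ifit genes none was called: *Ifit2* had HET below WT in every mouse (6.77 to 8.74 CPM against 9.62 to 13.8 CPM, log2 fold change -0.58, adjusted p = 0.12), while *Ifit1* and *Ifit3* overlapped, at 0.48 and 0.76. Of the 5 Oas genes none was called, their groups overlapped in every case, and the log2 fold changes ran from -0.18 in *Oas3* to 1.19 in *Oas2*. Reads of *Ifit3* and of the Oas genes may be shared with close paralogs, so their split is uncertain.

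*Mx1* was the only member called higher. It encodes a dynamin-like GTPase against influenza virus, and in C57BL/6 mice its gene carries a deletion that leaves no working protein. It measured 1.31, 4.02 and 2.16 CPM in HET mice and 0.916, 0.356 and 0.375 CPM in WT mice, from 18, 46 and 21 counts against 10, 4 and 5. The groups of mice did not overlap, with HET 2 well above the rest. The libraries did overlap: all 18 counts of HET 1 came from repeat 2, and its repeat 1 was at 0, below every WT library. The fold change on the log2 scale was 2.17, with a standard error of 0.70 (adjusted p = 0.032). Its interval, from 0.74 to 3.65, was wide, as these are small counts of reads without molecular identifiers. The call did not survive leaving out HET 2 (1.64, adjusted p = 0.23), HET 3 (2.26, adjusted p = 0.062), WT 2 (1.94, adjusted p = 0.12) or WT 3 (1.95, adjusted p = 0.14), nor a block for the mouse number (2.10, adjusted p = 0.058). Its neighbour *Mx2*, whose reads may be shared with it, was also higher on average at 0.81, but its mice overlapped (adjusted p = 0.35). HET 2 was also the mouse richest in B cell markers, at 95.4 CPM. The sum of the macrophage markers was higher in all HET mice, but *Cd68* and *Fcgr3* were lower on average. Without HET 2 and WT 3, the 2 mice with most B cell markers, the log2 fold change of *Mx1* was 1.43 (adjusted p = 0.40). The part of these cells in the difference was not tested.

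The other effectors gave no call, but *Samhd1* came close. SAMHD1 breaks down deoxynucleotides and so starves reverse transcription. Its gene measured 70.0, 74.9 and 71.2 CPM in HET mice and 49.5, 62.1 and 58.3 CPM in WT mice, without overlap, with a log2 fold change of 0.35 (95% interval 0.09 to 0.60, adjusted p = 0.054). It passed in 6 of 20 alternative analyses. *Xaf1*, a gene linked to cell death, had a log2 fold change of 0.33 with an unadjusted p of 0.047 (adjusted p = 0.15). *Isg20*, an exonuclease, measured 40.2, 38.7 and 58.0 CPM in HET mice and 41.6, 42.5 and 42.9 CPM in WT mice, so that HET 3 alone stood high (log2 fold change 0.11, adjusted p = 0.70). *Ifi35* measured 63.3, 55.2 and 54.5 CPM against 74.3, 62.3 and 56.4 CPM (-0.16, adjusted p = 0.46), *Bst2*, the tether that holds budding virus, ranged from 27.6 to 43.8 CPM and *Rtp4* from 20.5 to 36.4 CPM, with overlapping groups in each case. *Rsad2*, or viperin, had 0.437 to 2.10 CPM. *Ifi44* had 0, 16 and 8 counts in HET mice and 5, 6 and 16 counts in WT mice, and it was the member not tested.

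The guanylate-binding proteins, GTPases that interferon gamma induces strongly and that coat the vacuoles of pathogens, held 2 of the 4 lower calls among the members. *Gbp2* measured 7.93, 6.56 and 12.9 CPM in HET mice and 19.8, 15.2 and 17.4 CPM in WT mice. All HET mice lay below all WT mice, and the difference on the log2 scale was -0.95, with a standard error of 0.25 (adjusted p = 0.011). Without HET 2 it was -0.76 (adjusted p = 0.060) and without WT 1 it was -0.86 (adjusted p = 0.053). *Gbp3* measured 3.28, 3.41 and 2.47 CPM in HET mice and 8.97, 4.89 and 6.83 CPM in WT mice, again without overlap. Its log2 fold change of -1.17, with a standard error of 0.37 and an adjusted p of 0.028, was the lowest among the members. The call was lost without HET 1 (-1.22, adjusted p = 0.052), HET 3 (-1.05, adjusted p = 0.077), WT 1 (-0.95, adjusted p = 0.15) or WT 3 (-1.18, adjusted p = 0.077). *Gbp7*, which lies beside them and carries the same element, overlapped between the groups at 2.27 to 6.19 CPM against 1.96 to 4.12 CPM (log2 fold change 0.56, adjusted p = 0.46). Of the Gbp genes that are not members, none of the 4 tested was called: *Gbp4* had all HET mice above all WT mice, at 41.2 to 46.3 CPM against 31.2 to 37.7 CPM (0.34, unadjusted p = 0.027, adjusted p = 0.11), and *Gbp6*, *Gbp8* and *Gbp9* overlapped, at -0.27, -0.30 and -0.36. Gbp genes resemble each other closely, so how reads were split among them is uncertain. Macrophages also express them. The macrophage marker sums were higher in HET mice, but *Cd68* and *Fcgr3* were lower there on average. The part of these cells in the difference was not tested. Without HET 2 and WT 3, *Gbp2* was at -0.76 (adjusted p = 0.12) and *Gbp3* at -1.26 (adjusted p = 0.11).

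In the group of *Parp9*, *Parp14* and *Dtx3l*, which modify proteins with ADP-ribose or ubiquitin, only *Parp9* was called. It measured 28.5, 33.8 and 29.3 CPM in HET mice and 47.5, 42.6 and 39.7 CPM in WT mice, with no overlap and little spread within a group. The log2 fold change of -0.50 had a standard error of 0.15 and an adjusted p of 0.021. Leaving out HET 1 gave -0.46 (adjusted p = 0.078), leaving out HET 3 gave -0.48 (adjusted p = 0.055) and leaving out WT 1 gave -0.44 (adjusted p = 0.094). *Dtx3l*, its partner in a complex, measured 30.4 to 36.9 CPM and 33.7 to 44.5 CPM (log2 fold change -0.15, adjusted p = 0.57). The 2 genes share a start region on opposite strands, where their spans, introns included, overlap by 682 bases. Without strand, reads from exons there could not be assigned. *Parp14* ranged from 20.2 to 30.7 CPM over both groups (0.19, adjusted p = 0.53).

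On chromosome 16, which also carries *Bcl6*, lay 8 members, with differences of both signs. The nearest, *Rtp4*, was 0.351 Mb from *Bcl6* and had a log2 fold change of -0.09. *Parp14*, *Dtx3l* and *Parp9* lay 11.8 to 11.9 Mb away with values of 0.19, -0.15 and -0.50, the receptor genes 67.4 and 67.5 Mb away, and *Mx1* and *Mx2* 73.5 Mb away.

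Per kilobase of exon, which allows genes to be compared, the members spanned more than 2 orders of magnitude. The highest mean over 6 mice was that of *Bst2*, 39.7 CPM per kb, followed by *Ifi35* at 35.3, *Isg15* at 25.3, *Isg20* at 23.6 and *Irf1* at 20.3 CPM per kb. The lowest were *Oasl1* at 0.426, *Oasl2* at 0.407, *Mx1* at 0.402, *Oas2* at 0.355 and *Rsad2* at 0.273 CPM per kb. Of the 36 pairs of neighbours in this order, 34 had overlapping ranges over the 6 mice, so only the broad order is resolved. The median member had 4.52 CPM per kb and the median tested gene 4.56, and 18 of 37 members lay above the latter. Of the receptor chains and factors, *Irf1*, *Ifnar2* at 18.2, *Irf7* at 9.37, *Irf9* at 9.06 and *Ifnar1* at 7.81 CPM per kb lay above that median, and *Stat2* at 4.52 and *Irf8* at 3.54 CPM per kb lay below it, as did the Ifit, Oasl and Mx genes.

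**Figure D3:**
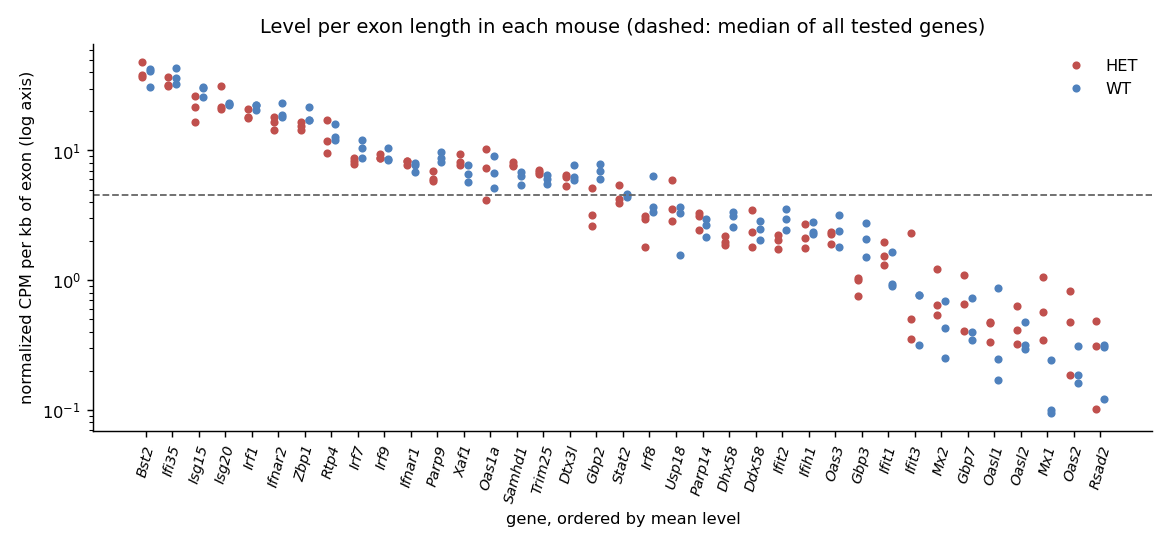
Normalized CPM per kilobase of exon, on a log axis, of the 37 tested members ordered by their mean, with 1 point for each of the 3 HET and 3 WT mice; the dashed line is the median of all tested genes, 4.56. The points run from *Bst2* near 39.7 to *Rsad2* near 0.273, and the spread between mice grows toward the low end.

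The mice and the repeats also varied in their own right. HET 2 had the highest value of the 6 mice for 11 of 37 members, WT 1 for 9, WT 3 for 7, HET 3 for 6, HET 1 for 3 and WT 2 for 1. Among the 10 members with a mean below 5 CPM, HET 2 was highest for 5, namely *Ifit1*, *Ifit3*, *Mx1*, *Mx2* and *Rsad2*. The sum of these 10 was 25.0, 31.4 and 21.8 CPM in HET mice and 24.0, 19.7 and 20.7 CPM in WT mice. In some mice the repeats differed more than that: HET 3 had 39.6 CPM in repeat 1 and 12.3 CPM in repeat 2, HET 2 had 20.96 and 47.1 CPM, and WT 1 had 15.4 and 32.5 CPM. *Ifit3* reached 9.69 CPM in repeat 2 of HET 2 and 0.289 CPM in its repeat 1, and *Oasl2* reached 11.0 CPM in repeat 1 of HET 3 and 0.310 CPM in its repeat 2. The 24 members at 10 CPM or more were steadier, with a median difference between repeats of 0.18 to 0.45 on the log2 scale. Over all 37 members the sum was 878 to 934 CPM in HET mice and 940 to 993 CPM in WT mice, a description that the members of highest level dominate.

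**Figure D4:**
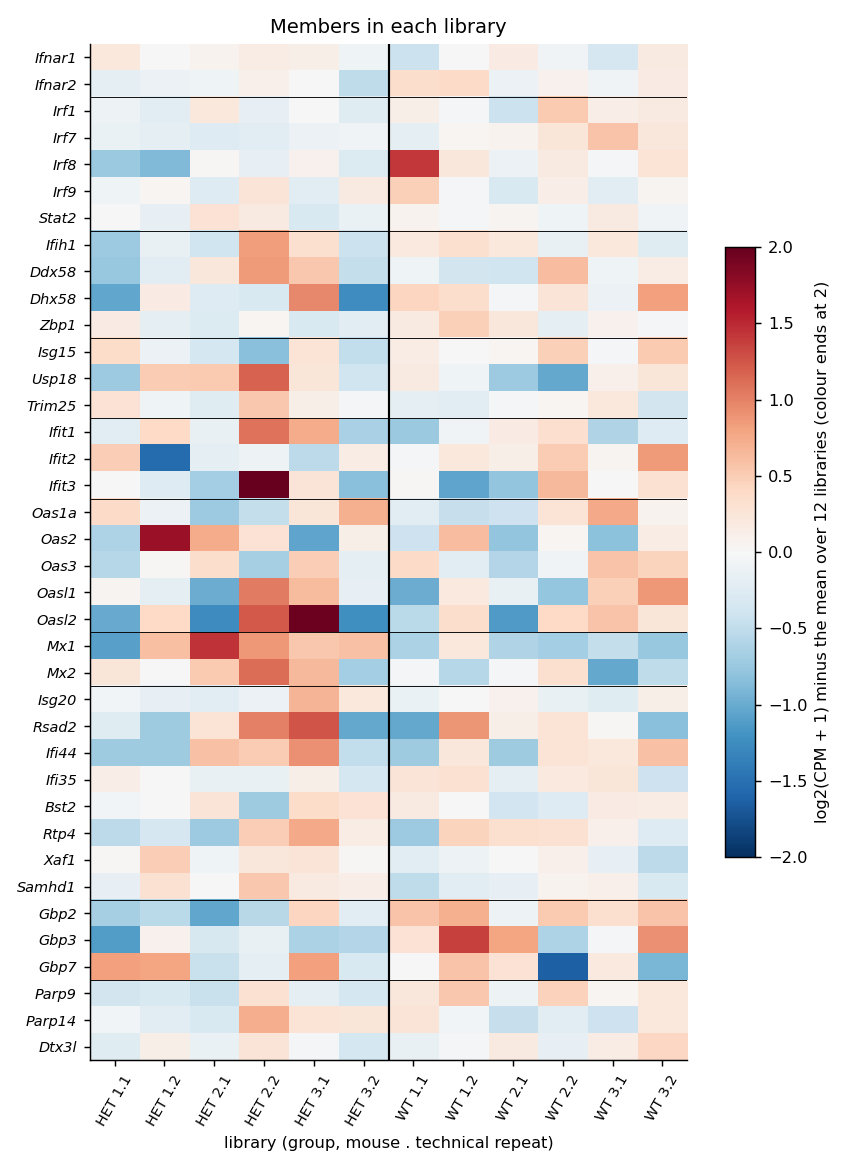
Level of the 38 members (rows, grouped by role) in the 12 libraries (columns, group and mouse followed by repeat) as log2(CPM + 1) minus the row's mean over 12 libraries, with colours that end at 2 in either direction. *Gbp2* and *Parp9* are mostly below their means in the HET columns, and *Ifit3* and *Oasl2* light up in single libraries, repeat 2 of HET 2 and repeat 1 of HET 3.

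Each repeat was also taken as its own data set in edgeR. In repeat 1 none of 31 members passed (2 had an unadjusted p below 0.05). Over all 11286 genes tested there, 547 were called higher and 512 lower. In repeat 2, 3 of 34 members passed (11 with an unadjusted p below 0.05), *Samhd1* higher and *Gbp2* and *Isg15* lower. Over all 11623 genes tested there, 736 were called higher and 710 lower. Of the 31 members tested in both repeats, 20 had the same sign. *Mx1* could be fitted in repeat 2 only, at 1.86. *Irf8*, *Parp9*, *Gbp2* and *Gbp3* were negative in both, with -0.80 and -0.66, -0.40 and -0.51, -0.65 and -1.10, and -1.30 and -1.13.

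Other genes of the interferon pathway were described from a list of 98 genes, of which 92 were in the table and 82 were tested. Of these, 7 were called higher and 7 lower, 17.1% in all against 18.0% of all tested genes, with a median log2 fold change of -0.13. The receptor kinases were not called: *Jak1* measured 277, 258 and 244 CPM against 273, 273 and 275 CPM (-0.07, adjusted p = 0.63), and *Tyk2* 40.0, 30.7 and 34.6 CPM against 38.6, 34.9 and 41.2 CPM (-0.12, adjusted p = 0.64). Among 6 further genes of the interferon regulatory factors and their binding proteins, 4 were higher, where 9.17% of all tested genes were: *Irf5* (0.84, adjusted p = 0.0016), *Irf2bp2* (0.82, adjusted p = 0.0017), *Irf4*, which activated T cells need (0.70, adjusted p = 0.0095), and *Irf2bp1* (0.62, adjusted p = 0.036). In antigen presentation the peptide transporter subunit *Tap2* was lower, at 90.4, 114 and 92.3 CPM in HET mice and 193, 179 and 193 CPM in WT mice (-0.93, adjusted p = 3.9e-06), as was *Tapbp*, or tapasin (-0.54, adjusted p = 0.00084), while the proteasome activator *Psme2* was higher (0.30, adjusted p = 0.020). Lower as well were *Trim14* (-1.33, adjusted p = 0.00084), *Slfn2*, which helps keep T cells quiescent (-0.33, adjusted p = 0.021), *Ifi27* (-0.43, adjusted p = 0.021), *Mavs*, the mitochondrial adaptor of RIG-I and MDA5 (-0.64, adjusted p = 0.028), and *Tgtp2* (-0.91, adjusted p = 0.029). *Ifi27l2a* (0.35, adjusted p = 0.031) and *Ly6a*, the surface protein Sca-1 (0.38, adjusted p = 0.039), were higher. With each mouse left out in turn, the calls of *Tap2*, *Tapbp*, *Trim14*, *Irf5* and *Irf2bp2* held in 6 of 6 fits. *Irf4* held in 4, and was lost without HET 1 (0.40, adjusted p = 0.14) or WT 3 (0.62, adjusted p = 0.056). *Slfn2* and *Ifi27* held in 3, *Psme2*, *Mavs*, *Ifi27l2a*, *Irf2bp1* and *Ly6a* in 2 and *Tgtp2* in 1, where only leaving out HET 2 kept it. The call of *Ly6a* was also lost in DESeq2 (0.37, adjusted p = 0.29). With GC and length trends removed, *Mavs* (-0.56, adjusted p = 0.053) and *Ifi27l2a* (0.25, adjusted p = 0.098) were lost. Repeat 1 alone lost *Tapbp* (adjusted p = 0.058), *Psme2* (0.13), *Ifi27* (0.16), *Slfn2* (0.24), *Ifi27l2a* (0.35), *Tgtp2* (0.45), *Mavs* (0.57) and *Irf2bp1* (0.57). Repeat 2 alone lost *Irf5* (adjusted p = 0.063), *Ifi27* (0.12), *Trim14* (0.13), *Irf4* (0.17), *Tgtp2* (0.21) and *Ly6a* (0.32). Over all alternatives *Tap2* was called in 20 of 20, *Tapbp*, *Trim14* and *Irf5* in 18, *Irf2bp2* in 17, *Irf4* and *Slfn2* in 14, *Mavs* in 12, *Psme2*, *Ifi27*, *Ifi27l2a*, *Irf2bp1* and *Ly6a* in 11, and *Tgtp2* in 8 of 19. *Ifng* had 0, 4 and 6 counts in HET mice and none in WT mice and was not tested, and the type I and III interferon genes of the list were not analysed here.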

How the data were processed

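SMART-Seq2 libraries of polyadenylated RNA were sequenced from about 200 sorted cells each. The authors aligned reads to GRCm38 (mm10) with HISAT2 2.2.1 and counted them per gene with HTSeq. They deposited raw counts of 24561 genes and TPM values. The annotation release, the strand setting and the gene lengths behind the TPM are not given in the sources used here.

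Deposited counts of the 2 repeats were added up per mouse, and 3 HET mice were compared with 3 WT mice in edgeR 4.0.16 under R 4.3.3 (TMM, filterByExpr, quasi-likelihood F test, Benjamini-Hochberg adjustment over 12719 genes). The reported fit used all 6 mice, with no sample dropped or imputed. A standard error is the coefficient divided by the root of F, and intervals are at 95%. CPM use TMM-scaled library sizes. With 3 mice a group, p-values measure the spread between these recipients only. No molecular identifiers mark the reads, so counting error understates the true error. Exon lengths and positions came from GENCODE M21 (GRCm38), in which 23822 symbols matched by name, 208 by another symbol and 531 not at all. Windows of 250 bases before RefSeq starts (GRCm38.p6) were searched for motifs on both strands. Where a GENCODE exon overlapped a stretch, at most 30 bases were kept.

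The members, the lists and the tests were chosen with earlier results of these data known. By rule, per-mouse values were given for every called member and for *Ifnar1*, *Ifnar2*, *Stat2*, *Irf9*, *Irf7* and *Irf1*, members reaching 50 CPM in any mouse were named, other members were given by range and count, and of the other interferon genes up to 15 called genes were named with *Jak1*, *Tyk2* and, as the targeted gene, *Bcl6*. A further gene of the rule is not reported here. Alternatives were DESeq2 1.42.0, other scalings, count filters of 1 and 10, each repeat alone, limma 3.58.1 on log2(TPM + 1) and log2(TPM + 0.1), a replicate block, GC and length trends removed with mgcv 1.9.3 (98.9% of tested genes had values), each mouse left out and, added after seeing the data, both mice highest in B cell markers left out. On simulated counts of 12413 genes for this comparison, edgeR recovered 64% of 100 genes changed by 1 on the log2 scale. It recovered 94.4% of 89 genes changed by 2, and 12 of its 160 calls were false. The changed genes were drawn from all levels and were far fewer than the genes called here. These shares therefore need not hold for members with few counts.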

Additional observations from a re-analysis of the deposited data

Results flagged for a closer look

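Of 28 sets of 6 libraries of 1 group (single genes or marker sums, the repeats of a mouse counted apart), 7 held a library beyond Dixon's 95% limit. For independent, normally distributed values the number would be about 1.4. Repeats of a mouse are not independent and some sets share genes, so the excess over 1.4 cannot be judged. *Irf8* was 62.8 CPM in repeat 1 of WT 1, and the median of the other 5 WT libraries was 26.2 CPM. *Mx1* was 1.45 CPM in repeat 2 of WT 1, with a median of 0.372 CPM in the others. All 6 WT libraries lay within the range of the HET libraries, 0 to 4.77 CPM, but only through repeat 1 of HET 1 at 0. The other HET libraries, at 2.08 to 4.77 CPM, lay above every WT library. *Parp9* was 44.9 CPM in repeat 2 of HET 2, with 27.9 CPM in the others, and this single HET library reached the WT range. The B cell marker sum was 156 CPM in repeat 2 of HET 2 and 93.3 CPM in repeat 2 of WT 3, with medians of 17.5 and 19.9 CPM in the other libraries of each group. The macrophage and monocyte marker sum was 40.2 CPM in repeat 1 of HET 1, with a median of 16.3 CPM in the others. The sum over the 38 members was 869 CPM in repeat 1 of WT 2, below the median of 987 CPM of the other WT libraries.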

How the results depend on the processing

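*Irf8* was called in 11 of 20 alternatives, *Parp9* in 12 of 20, *Gbp2* in 13 of 20, *Gbp3* in 11 of 19 and *Mx1* in 7 of 18, and none of the 5 changed sign. The number of members called higher, 1, was 2 with upper-quartile scaling (*Mx1* and *Samhd1*) and 2 with GC and length trends removed, 0 in repeat 1, 0 in each of the 3 TPM fits, 0 without the 2 mice highest in B cell markers and 0 to 1 over the fits that left out 1 mouse. The number called lower, 4, was 0 in repeat 1, 2 in repeat 2, 1 with log2(TPM + 1), 1 with log2(TPM + 0.1), 0 with TPM of all genes, 2 without the 2 mice highest in B cell markers and 0 to 4 with 1 mouse left out, where 0 came from leaving out WT 1 (7 members at an unadjusted p below 0.05 in edgeR). Calls over all genes fell as well, from 1166 higher and 1122 lower of 12719. They were 547 and 512 of 11286 in repeat 1 and 736 and 710 of 11623 in repeat 2. Of 12705 genes, log2(TPM + 1) called 390 and 915 and log2(TPM + 0.1) 374 and 886. TPM of all genes called 78 and 143 of 22392. Without the 2 mice highest in B cell markers there were 581 and 499 of 12780, and without WT 1 871 and 822 of 13237. Against 12 members at an unadjusted p below 0.05 in the reported fit, there were 2 in repeat 1, 11, 11 and 9 in the TPM fits by limma and 6 without the 2 mice highest in B cell markers. The median log2 fold change of the members was -0.14 with at least 10 counts in every library, -0.096 with log2(TPM + 1), -0.13 with log2(TPM + 0.1), -0.061 with TPM of all genes, 0.063 with GC and length trends removed, -0.071 without the 2 mice highest in B cell markers and -0.13 to 0.093 with 1 mouse left out. Other interferon genes called higher numbered 4 in either repeat, 1, 1 and 0 in the 3 TPM fits and 3 to 6 with 1 mouse left out, and those called lower 3 in repeat 1, 4 in repeat 2, 1 with TPM of all genes, 3 without the 2 mice highest in B cell markers and 4 to 7 with 1 mouse left out. The median of all genes shifted from 0.01 to -0.11 with log2(TPM + 0.1), and relative to it the members' median was -0.02. The causes were not tested.

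Of the genes covered by the naming rule, 7 changed sign under an alternative, none of them called. For the other members signs were compared between the repeats only, where *Isg15* (0.08 and -0.84) and *Ifih1* (-0.45 and 0.20) were among those that differed. *Stat2* was at 0.031 with upper-quartile scaling, 0.0028 with at least 10 counts in every library, 0.030 in repeat 2, 0.063 with GC and length trends removed, 0.050 with the replicate block added to that and -0.15 to 0.079 with 1 mouse left out. *Irf9* was at 0.12 in repeat 2, 0.024 with GC and length trends removed, 0.028 with the replicate block added and -0.096 to 0.060 with 1 mouse left out. *Isg20* was at -0.0016 in repeat 2 and -0.10 to 0.21 with 1 mouse left out, *Ifnar1* at -0.012 in repeat 2, *Irf1* at 0.086, *Jak1* at 0.00042 and *Tyk2* at 0.19 in repeat 1, and *Tyk2* at 0.024 without the 2 mice highest in B cell markers. Deviations of same-numbered mice had correlations of 0.09, -0.03 and 0.02, and those of mice with unlike numbers ran from -0.08 to 0.06. These values show no pairing by number, but with 3 mice a group they cannot exclude one. With the number as a replicate block, 1 member was higher, *Samhd1* (0.35, adjusted p = 0.038), in place of *Mx1* (2.10, adjusted p = 0.058), and 4 were lower. Small counts limit *Ifi44*, *Rsad2* and most of the Ifit, Oas and Mx genes.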
